A study of Mus musculus with 6 samples.

Results

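Receptor genes of the tumor necrosis factor (TNF) receptor superfamily were followed in the embryonic cortex, 8 in all: Tnfrsf9, Ngfr, Tnfrsf19, Tnfrsf21, Tnfrsf12a, Tnfrsf1a, Tnfrsf10b and Fas. They were taken from the count table of 17068 genes by their symbols, and 7 of the 8 were found there. Fas has no value in what follows and was not analysed here. The list was drawn up with results of these data known, since Tnfrsf9 had already stood out by its difference between the groups. The differences between groups are therefore given for these receptors as descriptions, and where the call of Tnfrsf9 is mentioned it restates how the gene was chosen. The samples were lateral cortex of 6 female c57/bl6 embryos at embryonic day (E)12.5, 1 bulk RNA-Seq library each. Controls 1, 2 and 4 were Foxp1 fl/+ and control 3 was Foxp1 fl/fl, all lacking Cre, and 2 libraries were labelled Foxp1 fl/fl;Emx1Cre (Foxp1cKO). The floxed allele is thus present in both groups. Emx1Cre acts in the progenitors of the dorsal telencephalon and their descendants, so that vessels, blood and meninges in the sample keep Foxp1 by design.

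The receptors of this family are membrane proteins with cysteine-rich repeats outside the cell, most of which bind trimeric ligands of the TNF family. Some carry a death domain inside the cell, through which adaptors such as Tradd and Fadd reach the caspases, whereas others bind TRAF proteins directly and lead mainly to NF-kB and JNK signaling. In the developing nervous system, Ngfr (the p75 neurotrophin receptor) and Tnfrsf21 (death receptor 6) are known for roles in neuronal survival and axon pruning, and Tnfrsf19 (Troy) marks progenitor cells and is a target of Wnt signaling. Tnfrsf9 (4-1BB, CD137) is best known from activated lymphocytes and is also found on other cells, including endothelium.

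Library totals ran from 50076008 to 78346979 counts on genes. Counts were scaled by edgeR's TMM method and are given as CPM, counts scaled to a common library total, where 3 counts correspond to 0.0381 to 0.0596 CPM. That limit and the counting intervals below cover counting error only. Foxp1 itself had 83.2 and 76.8 CPM in the libraries labelled Foxp1cKO and 59.7 to 79.1 CPM in the controls, so its total gave no sign of the deletion, which the deposited counts cannot resolve by exon. All directions below therefore rest on the labels. Of 9 radial glia markers, 8 were in the table, with summed levels of 2129 to 2631 CPM in the controls and 2378 and 2450 CPM in the libraries labelled Foxp1cKO. For neurons, 7 of 8 markers were present, at 2995 to 5124 CPM and 3854 and 4044 CPM. The missing markers of these lists were Sox2 and Tubb3, so absence from the table was not taken as absence of expression. Libraries of a group differed by far more than counting error (chi-square per gene of 25.9 to 193), so none was a repeat of another. The labels do not give litters.

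Tnfrsf9 (ENSMUSG00000028965.13, chromosome 4, 150914562 to 150946102, GENCODE M21 on GRCm38) is the receptor whose group difference brought the family into view, and its start regions are shown for that reason. RefSeq gives it 2 start sites, and the 250 bases before each are printed 5′ to 3′ on the plus strand (GRCm38.p6, chr4:150919905-150920154 and chr4:150927749-150927998). Capitals mark matches to the NF-kB consensus, and the core of the hypoxia response element (ACGTG or GCGTG, either strand) was searched in the same way.

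Tnfrsf9, first start: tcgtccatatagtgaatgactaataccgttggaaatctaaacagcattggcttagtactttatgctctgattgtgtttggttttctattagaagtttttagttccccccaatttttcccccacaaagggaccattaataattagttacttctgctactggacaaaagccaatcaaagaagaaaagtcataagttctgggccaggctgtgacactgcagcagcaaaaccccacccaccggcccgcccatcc

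Tnfrsf9, second start: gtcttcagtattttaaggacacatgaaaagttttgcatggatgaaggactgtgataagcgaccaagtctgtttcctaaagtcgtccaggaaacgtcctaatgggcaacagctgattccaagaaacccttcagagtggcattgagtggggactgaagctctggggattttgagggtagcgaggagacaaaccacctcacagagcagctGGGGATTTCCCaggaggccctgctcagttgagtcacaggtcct

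Neither window of Tnfrsf9 held a hypoxia core, which 38.6% of the 32851 mouse windows of this length held. The second window held 2 overlapping matches to the NF-kB consensus, beginning 43 and 42 bases before the start, and 7.25% of all windows held at least 1. Of the 9 windows found for 7 of the listed receptors, 5 held a hypoxia core (those of Ngfr, Tnfrsf19, Tnfrsf21 and Fas) and 1 held the NF-kB consensus. Tnfrsf10b had no entry. A match is a run of letters and does not show binding.

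Between genes, levels were compared as CPM per kilobase of exon, using the median of the 6 libraries. Tnfrsf19 was the most abundant of the 7, at 35.1 CPM per kilobase (range 12.1 to 50.5), above 92.8% of the 17047 genes with an annotated length. Tnfrsf21 followed at 10.2 (8.92 to 11.8), Tnfrsf1a, the main receptor for TNF, at 3.93 (3.06 to 4.88) and Ngfr at 1.74 (1.16 to 2.23). These 4 did not overlap in range with their neighbors in the order. Tnfrsf10b, the receptor for the death ligand TRAIL, had 0.508 CPM per kilobase (0.330 to 0.736), and Tnfrsf12a, the receptor for the ligand TWEAK, had 0.388 (0.205 to 0.677). These 2 overlapped, with Tnfrsf10b higher in 5 of 6 libraries. Tnfrsf9 was the least abundant, at 0.0977 (0.0607 to 0.552), above 4.55% of genes. In the controls it lay below Tnfrsf12a in all 4 libraries, whereas in both libraries labelled Foxp1cKO it lay above Tnfrsf12a and close to Tnfrsf10b.

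**Figure D1:**
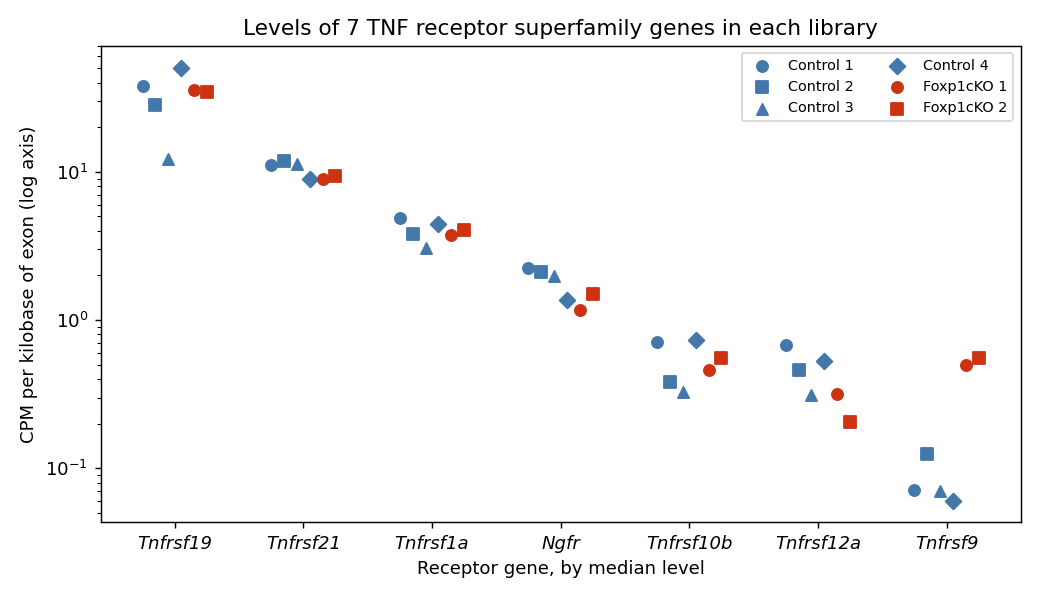
Level of each receptor in each library, in CPM per kilobase of exon on a log axis, with genes ordered by their median. Controls are blue and libraries labelled Foxp1cKO are red; Tnfrsf19 spans 12.1 to 50.5 and Tnfrsf9 moves from 0.0607 to 0.124 in the controls to 0.496 and 0.552.

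Tnfrsf9 was higher in the libraries labelled Foxp1cKO. It had 12, 21, 14 and 13 counts in controls 1 to 4, and 68 and 114 counts in the libraries labelled Foxp1cKO 1 and 2. In CPM these were 0.194, 0.338, 0.192 and 0.165, against 1.35 and 1.50. Both labelled libraries thus stood above every control. The exact 95% Poisson interval of the highest control count, 21, was 13.0 to 32.1, and that of the lower labelled count, 68, was 52.8 to 86.2, which covers counting error and not the spread between embryos. The means were 0.222 ± 0.0783 CPM (SD, n = 4) and 1.43 ± 0.107 CPM (SD, n = 2). The log2 fold change was 2.68 (standard error 0.328, from edgeR's fit), a 6.43-fold difference. Tnfrsf9 was 1 of the 26 genes with an adjusted p-value under 0.05, which were 0.152% of all genes tested. Since the gene was picked by this contrast, nothing is read from that call, which lay close to the threshold. It was lost when control 1, 2 or 3 or either labelled library was left out, with DESeq2's size factors and with the replicate block. With a library left out, the log2 fold change stayed between 2.56 and 2.95. The authors' list of the most upregulated genes, from a model of these libraries that included litter, does not name Tnfrsf9. Tnfrsf9 overlaps Camta1, which lies on the other strand, with 0 exon bases in common.

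Only 1 of 10 lymphocyte markers, the B cell gene Cd79a, was in the table, at 0.165 to 0.381 CPM in the controls and 0.397 and 0.250 CPM in the labelled libraries. The T cell markers Cd3e, Cd3d, Cd3g, Cd4 and Cd8a were not among the 17068 genes, which does not by itself show that they were not expressed. The summed markers of mural cells, red cells and neural crest were above every control in the labelled libraries, as Tnfrsf9 was. Among single genes, 11.5% of all had this arrangement. For mural cells, 7 of 7 markers had positive log2 fold changes (median 0.48) and 4 stood above every control, with summed levels of 194 to 231 CPM in the controls and 290 and 289 CPM in the labelled libraries. For red cells these counts were 7 of 8 (median 1.06) and 3, with 1019 to 2985 CPM and then 3129 and 3489 CPM, and control 4 was close to the labelled libraries. Macrophage markers gave 8 of 10 (median 0.34) and 4, and their summed levels overlapped, at 27.9 to 57.3 CPM and then 52.4 and 48.8 CPM. Endothelial markers gave 6 of 10 (median 0.058) and 2, also with overlapping sums of 145 to 222 CPM and then 203 and 251 CPM. Among them Flt1, a receptor for vascular endothelial growth factor, passed edgeR's quasi-likelihood test (log2 fold change 1.64, adjusted p = 0.0179). Of 6 neural crest markers 3 were in the table, all with positive log2 fold changes (median 0.83), and 1 stood above every control. They summed to 14.6 to 16.1 CPM and then 17.3 and 34.9 CPM, so the library labelled Foxp1cKO 1 was close to the controls. In bulk tissue, a change in the number of cells of a type and a change in RNA per cell cannot be told apart. The part of these markers in the level of Tnfrsf9 was not tested.

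Of the other receptors without a death domain, Tnfrsf12a had lower mean CPM in the labelled libraries and Tnfrsf19 had labelled libraries within the range of the controls. Tnfrsf12a (ENSMUSG00000023905.14, chromosome 17, 23675445 to 23677468) is a small receptor induced by growth factors and tissue injury. It had 1.31, 0.885, 0.604 and 1.03 CPM in controls 1 to 4, and 0.616 and 0.395 CPM in the libraries labelled Foxp1cKO. The lower labelled library was below every control, and the higher one was just above control 3, so the groups overlapped. The log2 fold change was -0.93 (standard error 0.391), and fits lacking one library gave -1.27 to -0.65. Only 30 to 81 counts per library stood behind these values.

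Tnfrsf19 (ENSMUSG00000060548.13, chromosome 14, 60963875 to 61046490) differed far more between controls than between groups. Controls 1 to 4 had 180, 135, 57.5 and 239 CPM, a 4.16-fold range, and the labelled libraries had 169 and 164 CPM. The lowest value was that of control 3, the fl/fl embryo, and the highest that of control 4. The log2 fold change was 0.12 (standard error 0.469), and it turned to -0.16 without control 3.

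**Figure D2:**
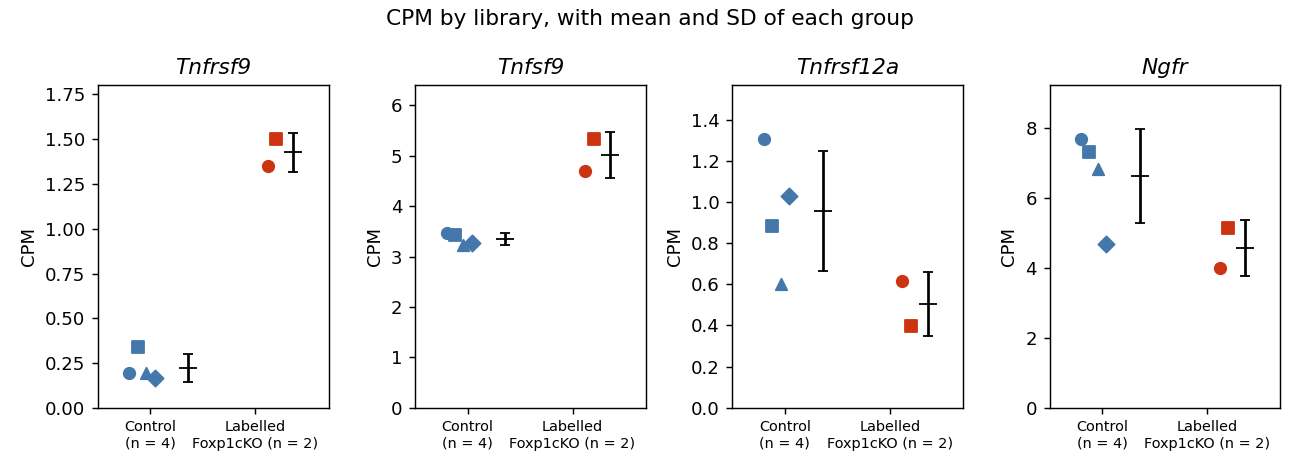
CPM of Tnfrsf9, of its ligand gene Tnfsf9, of Tnfrsf12a and of Ngfr in each library (points), with the mean and SD of each group (black). Tnfrsf9 and Tnfsf9 do not overlap between the groups, whereas Tnfrsf12a overlaps through control 3 and Ngfr through control 4.

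Of the 5 listed receptors with a death domain, 4 were measured, and all 4 log2 fold changes were below 0 with all libraries included. Ngfr (ENSMUSG00000000120.6, chromosome 11, 95568818 to 95587735) binds all neurotrophins. It had 7.70, 7.32, 6.83 and 4.69 CPM in controls 1 to 4, and 4.01 and 5.14 CPM in the labelled libraries. Control 4 lay between the labelled libraries, which were below the other 3 controls. The log2 fold change was -0.53 (standard error 0.245), and it was -0.67 without control 4.

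Tnfrsf21 (ENSMUSG00000023915.4, chromosome 17, 43016555 to 43089189) showed the same arrangement at a higher level. Controls 1 to 4 had 45.6, 48.4, 46.2 and 36.8 CPM, and the labelled libraries had 36.7 and 38.5 CPM. Again control 4 fell between the labelled libraries. The log2 fold change was -0.24 (standard error 0.121). The levels of Ngfr and Tnfrsf21 followed each other across libraries, with Pearson's r of 0.95 on log2 CPM over the 6 libraries. This was not particular to them, since r was 0.93 for Tnfrsf1a with Tnfrsf10b and 0.86 for Tnfrsf19 with Tnfrsf1a. These points share their libraries, and the values are a description.

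Tnfrsf1a (ENSMUSG00000030341.17, chromosome 6, 125349362 to 125362484) had 12.6, 9.83, 7.92 and 11.5 CPM in the controls, and 9.74 and 10.5 CPM in the labelled libraries, which fell within the range of the controls. Its log2 fold change was -0.045 (standard error 0.201). Tnfrsf10b (ENSMUSG00000022074.6, chromosome 14, 69767472 to 69784411), a known target of p53, had 3.91, 2.08, 1.80 and 4.01 CPM in the controls, and 2.52 and 3.02 CPM in the labelled libraries. Its groups overlapped too, with a log2 fold change of -0.088 (standard error 0.382). Both fold changes were smaller than their standard errors, and both turned positive without control 1, without control 4 or without the library labelled Foxp1cKO 1.

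Over the 7 receptors, the median log2 fold change was -0.088, with 5 below 0 and 2 above, whereas over all 17068 genes the median was -0.0044 with 8661 below 0. One receptor, Tnfrsf9, had both labelled libraries above every control, as did 11.5% of all genes. No listed receptor had both below every control, an arrangement found in 13.1% of all genes.

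Among the controls, Tnfrsf19, Tnfrsf1a, Tnfrsf10b and Tnfrsf12a had features in common: each was lowest in control 3, and each was higher in controls 1 and 4 than in control 2. The same held for the summed markers of fibroblasts and meninges, and also for those of endothelial cells, mural cells, macrophages and neural crest. It did not hold for those of radial glia, neurons, red cells or lymphocytes. These features were thus not particular to fibroblasts and meninges. Endothelial markers, for example, summed to 222, 149, 145 and 181 CPM in controls 1 to 4. The 9 markers of fibroblasts and meninges, all present, summed to 588, 183, 101 and 383 CPM in controls 1 to 4. They summed to 160 and 356 CPM in the libraries labelled Foxp1cKO 1 and 2. These markers varied more widely than these 4 receptors, of which Tnfrsf1a, for example, spanned 1.60-fold over the same libraries. None of the 9 markers passed the test between the groups (smallest adjusted p = 0.823, edgeR's quasi-likelihood test, 0 with an unadjusted p-value under 0.05). Their part in the levels of the receptors was not tested. The features above are those of the controls. In the library labelled Foxp1cKO 1 the markers were at 0.510 of the mean of the controls. There Tnfrsf19 was at 1.11, Tnfrsf1a at 0.931, Tnfrsf10b at 0.856 and Tnfrsf12a at 0.644. In the library labelled Foxp1cKO 2 the markers were at 1.13, Tnfrsf19 at 1.07, Tnfrsf1a at 1.01 and Tnfrsf10b at 1.02. Tnfrsf12a was at its lowest there, 0.414.

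**Figure D3:**
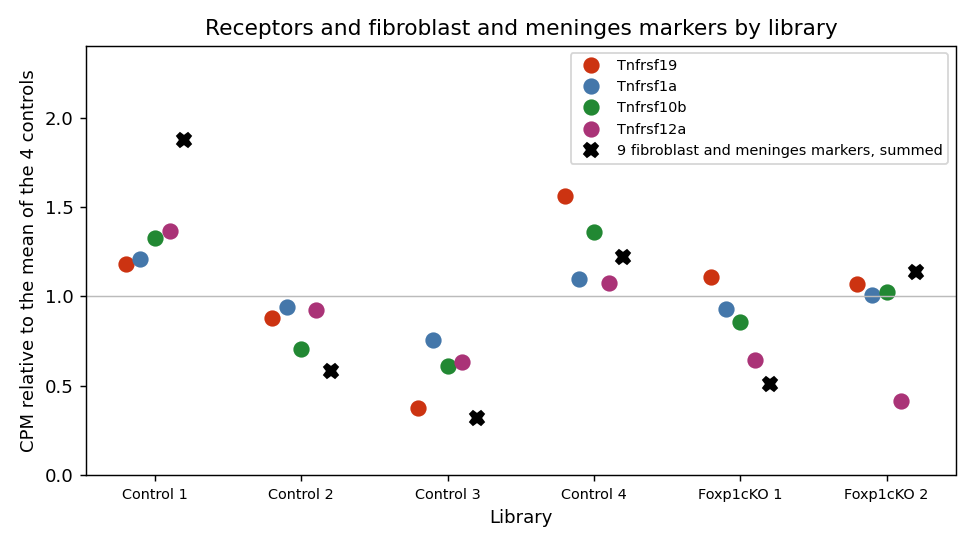
CPM of 4 receptors (circles) and the summed CPM of 9 fibroblast and meninges markers (crosses) in each library, relative to the mean of the 4 controls. All 5 are lowest among the controls in control 3, and Tnfrsf12a alone of the 5 is far below 1 in the library labelled Foxp1cKO 2.

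The genes with the most similar pattern were found by Pearson's r on log2 CPM over the 6 libraries, among 13850 other genes with a mean of at least 1 CPM. With so many genes and 6 libraries, high values are found for any gene. For Tnfrsf9 the 5 closest were Pnrc1 (r = 0.990), Gm32699 (0.989), Rgs5 (0.989), A2m (0.986) and Apold1 (0.984). All 5 had both labelled libraries above every control. Tnfrsf9 was chosen for this same difference between the groups, so a high r with it mainly repeats how the gene was chosen. The ranking therefore cannot link Tnfrsf9 to a cell type, and such a link was not tested. Rgs5, a marker of pericytes, had 28.9 to 36.3 CPM in the controls and 49.3 and 47.4 CPM in the labelled libraries. Apold1, a gene of vascular endothelium, had 5.58 to 7.34 CPM and then 11.7 and 13.7 CPM. On the deposited variance-stabilized values, only 1 of these 5 was again among the 5 closest, and by Spearman's rho, with 14 genes tied at the top, 0 were.

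For Tnfrsf1a the closest genes were Abca9 (r = 0.992) and Dcn (0.991), which encodes the matrix proteoglycan decorin and is one of the fibroblast markers above. For Tnfrsf19 they were Tom1l1 (0.999) and Dmrt3 (0.996), a transcription factor of the medial cortex, which had 7.34 CPM in control 3 and 15.8 to 28.8 CPM elsewhere. Zbtb18 and Rnf41 (both 0.998) were closest to Ngfr. Zbtb18, a transcriptional repressor active in cortical neurons, had 683, 657, 610 and 381 CPM in the controls and 339 and 444 CPM in the labelled libraries. Lrp10 and Pex16 were closest to Tnfrsf21 (0.995 and 0.994), Tmem176a and Mettl16 to Tnfrsf12a (0.994 and 0.989), and Esco1 and Stard8 to Tnfrsf10b (0.997 and 0.992).

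The remaining receptors of the superfamily ask whether the difference of Tnfrsf9 was shared within the family. Of 20 such genes, 16 were in the table. Of these, 0 passed an adjusted p-value under 0.05 in edgeR's quasi-likelihood test, 2 had an unadjusted p-value under 0.05, as did 13% of all genes. DESeq2's Wald test called 1 of the 16 and limma 0, against 507 and 27 of all 17068 genes. Since edgeR called only 0.152% of all genes, 0 of 16 cannot show whether the difference was shared. The largest difference was that of Tnfrsf11b, which encodes osteoprotegerin, a secreted decoy receptor for the ligands RANKL and TRAIL. It had 0.872, 0.901, 0.988 and 0.902 CPM in the controls, and 2.60 and 2.11 CPM in the labelled libraries, which were above every control. The difference was 1.36 on the log2 scale (standard error 0.206, adjusted p = 0.0897, edgeR's quasi-likelihood test), and it passed the threshold with DESeq2's Wald test (adjusted p = 5.2e-05). The other of these 2 was Eda2r, the receptor for ectodysplasin A2 and a p53 target, with 1.42 to 2.10 CPM in the controls and 2.31 and 3.45 CPM in the labelled libraries (log2 fold change 0.75, standard error 0.254, adjusted p = 0.315, edgeR's quasi-likelihood test).

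Tnfrsf4 (OX40), a costimulatory receptor of T cells, had lower values in the labelled libraries, 0.974 and 1.02 CPM against 1.24 to 1.68 CPM (log2 fold change -0.53, standard error 0.237, adjusted p = 0.402, edgeR's quasi-likelihood test). Tnfrsf23 had 1.29 and 1.45 CPM against 0.501 to 1.13 CPM. It lies on chromosome 7 beside the related Tnfrsf22 and Tnfrsf26. The authors used uniquely mapped reads, so reads shared by these 3 genes may be missing from the counts. Tnfrsf26 had 0.994 and 0.699 CPM against 0.515 to 0.659 CPM, a log2 fold change of 0.49, whereas Tnfrsf22 overlapped between the groups (0.15). Overlap was also found for Tnfrsf1b, Ltbr, Cd40, Tnfrsf11a, Tnfrsf13b, Tnfrsf13c, Tnfrsf14, Tnfrsf25, Edar and Relt, with log2 fold changes of -0.41 (Tnfrsf11a) to 0.44 (Tnfrsf14). The 16 genes had a median log2 fold change of 0.17, with 12 above 0, and 4 of the 16 had both labelled libraries above every control, against 11.5% of all genes.

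**Figure D4:**
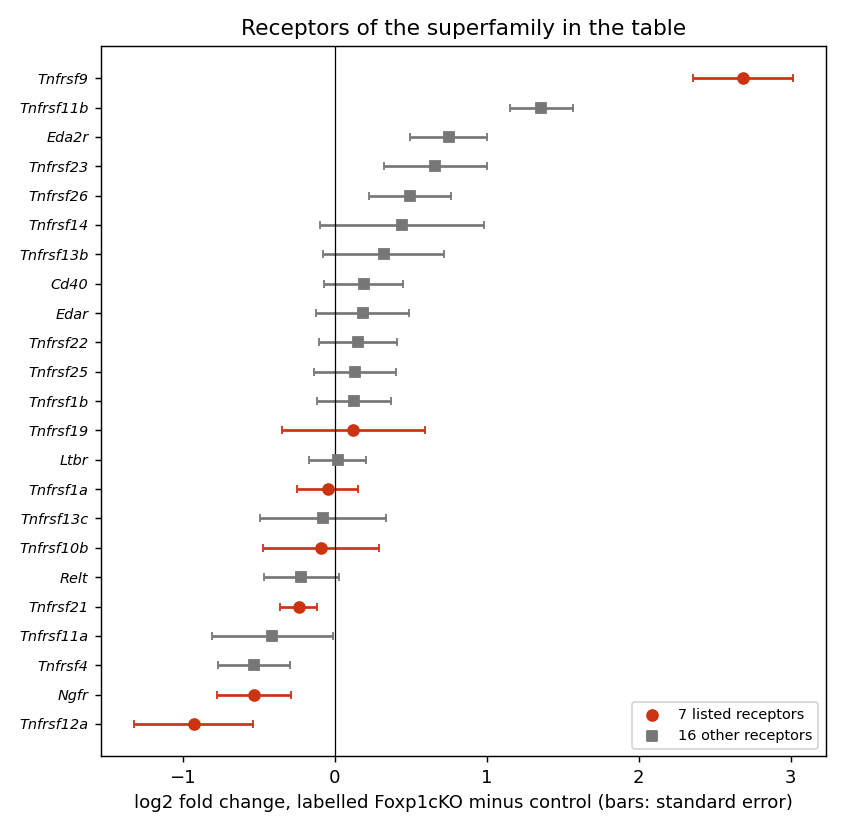
Log2 fold change of each receptor of the superfamily in the table, labelled Foxp1cKO minus control, with bars of 1 standard error. Red circles are the 7 listed receptors and gray squares the 16 others; Tnfrsf9, at 2.68, and Tnfrsf11b, at 1.36, lie farthest above 0, and Tnfrsf12a, at -0.93, farthest below.

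Few ligand genes of the family were in the table. Of 18 ligand genes, 5 were present, and Tnf, Tnfsf10 (TRAIL) and Tnfsf12 (TWEAK) were not among them. Their absence is no measure of expression, since the radial glia marker Sox2 and the neuron marker Tubb3 were absent too. Tnfsf9 (4-1BB ligand), which binds Tnfrsf9, had 3.47, 3.43, 3.24 and 3.28 CPM in the controls, and 4.69 and 5.34 CPM in the labelled libraries. Both of these stood above every control. The log2 fold change of the ligand was 0.58 (standard error 0.161, adjusted p = 0.270, edgeR's quasi-likelihood test), past the threshold with DESeq2's Wald test alone (adjusted p = 0.0175). In the controls, the ligand had more CPM than its receptor in 4 of 4 libraries, although CPM does not correct for gene length. Fasl, the ligand of Fas, had 0.0644 to 0.453 CPM in the controls, from only 4 to 33 counts, and 0.358 and 0.198 CPM in the labelled libraries. The decoy target of Tnfrsf11b, Tnfsf11 (RANKL), had 0.178 to 0.933 CPM and 0.656 and 0.962 CPM. All 5 ligand genes had positive log2 fold changes, with a median of 0.39. EdgeR's test called 0 of them (0.152% of all genes), and 1 had an unadjusted p-value under 0.05, as did 13% of all genes. DESeq2 called 1 and limma 0, against 507 and 27 of all 17068 genes.

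For the ligands and partners of Ngfr, 14 of 18 genes were in the table. EdgeR's quasi-likelihood test called 0 of them (0.152% of all genes), and 1 had an unadjusted p-value under 0.05, as did 13% of all genes. DESeq2 and limma called 0, against 507 and 27 of all 17068 genes. The neurotrophin genes Bdnf and Ntf3 were low. Bdnf had 0.662 to 1.02 CPM in the controls and 0.835 and 1.23 CPM in the labelled libraries, and Ntf3 had 1.63 to 2.29 CPM and then 1.51 and 3.22 CPM, so that both overlapped between the groups. The receptor tyrosine kinases were far higher. Ntrk2, the receptor of Bdnf, had 109, 131, 144 and 98.4 CPM in the controls and 173 and 152 CPM in the labelled libraries, both above every control (log2 fold change 0.43, standard error 0.157, adjusted p = 0.343, edgeR's quasi-likelihood test). Ntrk3 had 106 to 158 CPM and then 136 and 133 CPM. The coreceptors Sort1, Rtn4r and Lingo1 had log2 fold changes of -0.027, 0.018 and 0.18, each smaller than its standard error. App, whose product has been described as a ligand of death receptor 6, had 233 to 322 CPM in the controls and 307 and 353 CPM in the labelled libraries.

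Inside the cell, 37 of 38 adaptor, ubiquitin ligase and caspase genes were in the table. Of these, 0 passed edgeR's quasi-likelihood test, 2 had an unadjusted p-value under 0.05 (13% of all genes did), DESeq2 and limma called 0, and their median log2 fold change was -0.030. Both labelled libraries were below every control in 8 of the 37 and above in 3, against 13.1% and 11.5% of all genes. The 3 with the smallest p-values were Chuk, Tab2 and Ikbkg. Chuk, which encodes the kinase IKK-alpha, had 111 to 117 CPM in the controls and 100 CPM in both labelled libraries (log2 fold change -0.19, standard error 0.0653, adjusted p = 0.316, edgeR's quasi-likelihood test). Tab2, an adaptor of the kinase TAK1, had 155 to 166 CPM and then 187 and 178 CPM, a log2 fold change of 0.19. Ikbkg, the regulatory subunit of the IKK complex, had 46.7 to 53.8 CPM and then 42.2 and 45.3 CPM, a log2 fold change of -0.21. All of these differences were small, and in each of the 3 genes the groups did not overlap.

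Of 26 genes of NF-kB subunits, inhibitors and targets, 20 were in the table. EdgeR's quasi-likelihood test called 0 of them (0.152% of all genes). In that test 5 had an unadjusted p-value under 0.05 (13% of all genes did), 4 of them higher and 1 lower. Ier3, an early response gene, had 1.57, 2.01, 1.44 and 1.08 CPM in the controls, and 3.95 and 3.28 CPM in the labelled libraries. This was a difference of 1.25 on the log2 scale (standard error 0.269, adjusted p = 0.236, edgeR's quasi-likelihood test). Tnfaip3, which encodes the NF-kB feedback inhibitor A20, had 2.92, 3.44, 2.92 and 2.17 CPM in the controls, and 5.11 and 7.16 CPM in the labelled libraries. The difference was 1.10 on the log2 scale (standard error 0.238, adjusted p = 0.236, edgeR's quasi-likelihood test). With DESeq2's Wald test, Ier3 (adjusted p = 0.00503) and Tnfaip3 (adjusted p = 0.00347) passed, and limma called 0 of the list. Both genes are also in the authors' list of the most upregulated genes, from a model of these same libraries that included litter. Of all 17068 genes, DESeq2 called 507 and limma 27. Vcam1, an adhesion molecule, went the other way, with 27.5 to 45.6 CPM in the controls and 23.0 and 25.2 CPM in the labelled libraries (log2 fold change -0.62, standard error 0.192, adjusted p = 0.291, edgeR's quasi-likelihood test). Among the 20 genes, 11 were above 0 and 9 below, with a median of 0.036.

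**Figure D5:**
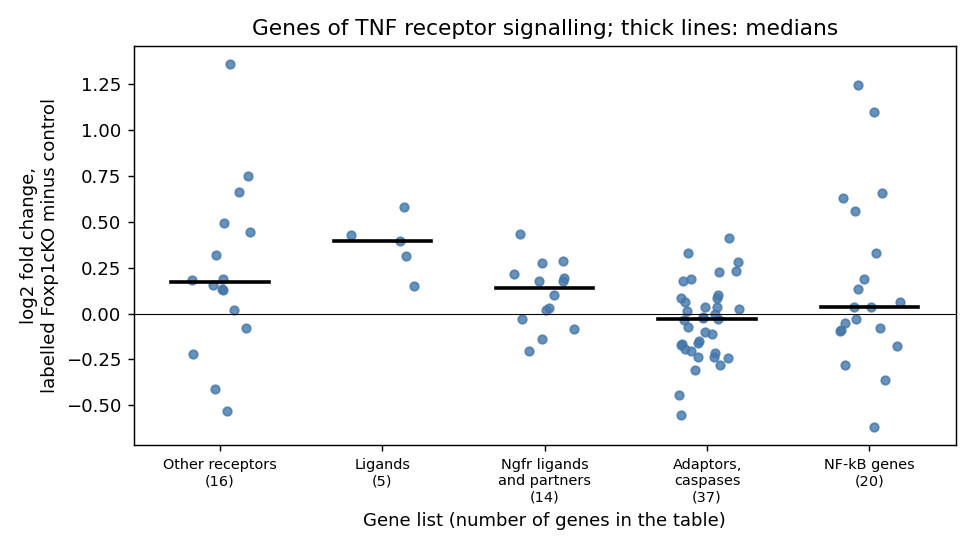
Log2 fold change, labelled Foxp1cKO minus control, of each gene of 5 lists of TNF receptor signaling, 1 point per gene, with thick lines at the medians. Medians lie between -0.030 for adaptors and caspases and 0.39 for the 5 ligands, and no point passed edgeR's test, which 0.152% of all genes passed.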

How the data were processed

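Per the labels and the study's methods, the authors prepared stranded libraries, aligned reads to mm10 with STAR, counted genes with HTSeq 0.9.1 in union mode (strand setting not given in the sources used here) and removed low genes. The deposited counts are whole and unnormalized. The deposited VST values, on a log2-like scale, were made by the authors with DESeq2 and used here as an alternative.

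Counts of all 17068 genes were fitted with edgeR 4.0.16 in R 4.3.3 (TMM, quasi-likelihood test, group alone, Benjamini-Hochberg adjustment, threshold 0.05). The authors also modeled litter, which was not used here. Standard errors were the log2 fold change divided by the root of F. Log2 CPM used a prior count of 2. DESeq2 1.42.0 and limma 3.58.1 were alternatives, beside other size factors, low-count filters, fits lacking one library and the replicate block. Tests were tried on simulated data. Positions and exon lengths came from GENCODE M21, another release than the authors', which held 17047 of the identifiers, and start windows came from RefSeq on GRCm38.p6. With 4 libraries against 2, p-values measure the spread between these embryos only.

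The receptors and all lists were chosen with earlier results of these data known. Genes named were the listed receptors, the other receptors, direct ligands and coreceptors, the 3 smallest p-values of the remaining lists, and for each receptor the 2 genes (5 for Tnfrsf9) of highest r. One gene of the lists is not reported here.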

Additional observations from a re-analysis of the deposited data

Results flagged for a closer look

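Of 99 genes examined (the 7 measured receptors and 92 genes of the signaling lists), 3 had a control that stood apart from the other 3 by Dixon's criterion for 4 samples, and chance gives about 1 in 20. Tnfrsf9 was highest in control 2, at 0.338 CPM, against 0.165 to 0.194 CPM in the other controls, a gap of 0.834 of the range that rests on 21 counts. Tnfrsf25 was lowest in control 2, at 0.821 CPM, against 1.19 to 1.24 CPM. Nfkbid was highest in control 1, at 1.92 CPM, against 1.26 to 1.35 CPM.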

How the results depend on the processing

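Against 26 genes called by edgeR, DESeq2's Wald test called 507, and between 2 and 96 were called in fits lacking one library (2 without control 2 and 96 without control 4). With the replicate block 0 were called. Replicate numbers 1 and 2 occur in both groups, but the embryos differ, so the numbers were not taken as pairs. Same-numbered libraries' deviations from their group means correlated at -0.198 and 0.0157. The deviations of the 2 labelled libraries mirror each other, so these values cannot show or exclude pairing or shared litters. Of the 92 signaling genes, 0 were called by edgeR, with or without the replicate block, and 4 by DESeq2's Wald test (Ier3, Tnfaip3, Tnfsf9 and Tnfrsf11b). For Tnfrsf9, a gene chosen on these libraries, the log2 fold change was 2.45 with the replicate block and 0.75 on the VST scale, which compresses low counts. The signs of Tnfrsf19, Tnfrsf1a and Tnfrsf10b changed when single libraries were left out. With the longest transcript as length, Tnfrsf12a had 0.763 and Tnfrsf10b 0.872 CPM per kilobase.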
